A study of Mus musculus with 24 samples.

Results

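The mitochondrial ribosome is built from RNAs of the mitochondrial genome and from proteins that are encoded in the nucleus, translated by cytosolic ribosomes and imported. It translates the few mRNAs of the mitochondrial genome, all of which encode core subunits of oxidative phosphorylation, a demand that is high in neurons. Most of its proteins carry the gene symbols Mrpl (large subunit) or Mrps (small subunit). Translation of nuclear mRNAs for mitochondrial ribosomal proteins is known to be under the control of mTORC1 in some cultured cells, and TSC2, with TSC1, restrains mTORC1. The genes described here are all rows of the RNA and ribosome-protected fragment (RPF) tables whose symbol begins with Mrpl or Mrps followed by a number. There were 77 of them in each table, among 23845 rows for RNA and 20436 for RPF, and all 77 passed the filter on low counts in both assays. Cytosolic ribosomal protein genes (symbols Rpl or Rps followed by a number) served as reference, with 83 of 86 rows tested for RNA and 77 of 81 for RPF. Another 11 rows of that symbol pattern, the S6 kinases and Rps19bp1, encode no ribosomal protein and were left out of the reference. The pseudogene row Rpl31-ps12 and the rows Rpl22l1, Rpl7l1 and Rps27l were kept in it.

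RNA-seq and ribosome profiling were performed on hippocampal slices of male Tsc2+/- mice, which lack 1 copy of Tsc2 in the germline, and of WT littermates, aged 28 to 42 days. Slices had been kept for 5 min in vehicle or in 100 µM DHPG, which activates the group I class of metabotropic glutamate receptor, and cycloheximide, which stalls elongating ribosomes, was given to all groups at 100 µg/ml. Per the study's methods, CA3 was cut off, slices of several mice were pooled for a library, and the deletion, made by a Cre under the CMV promoter, was carried in the germline. The 4 groups of each assay (WT vehicle, WT DHPG, Tsc2+/- vehicle and Tsc2+/- DHPG) held 3 libraries each.

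Libraries held 14801679 to 24067838 counts for RNA and 5296006 to 13613673 for RPF. The mitochondrial ribosomal protein genes took 0.146% to 0.173% of the RNA counts and 0.253% to 0.281% of the RPF counts, and the lowest count of any of them in any library was 63 for RNA and 54 for RPF. WT vehicle libraries had 191 ± 4.64 CPM of Tsc2 RNA (SD, n = 3) and Tsc2+/- vehicle libraries 134 ± 4.84, the direction the labels give (log2 fold change -0.52, edgeR adjusted p 2.03e-07). Markers of CA1, neurons, astrocytes and oligodendrocytes were present in every library, and the summed CA3 markers were at 45.0 to 66.0 CPM in RNA against 1736 to 1923 CPM for CA1. The summed RNA of the blood markers was 9.48 to 11.1 CPM in WT vehicle and 1.12 to 7.57 CPM in Tsc2+/- vehicle. The summed dentate gyrus markers were at 28.2 to 37.7 CPM in WT DHPG and 16.8 to 23.7 CPM in Tsc2+/- DHPG in RNA, and at 30.3 to 35.4 and 17.2 to 22.8 CPM in RPF, without overlap. The part of both lists in the results was not tested.

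The 77 genes lay on 17 chromosomes, with 31 of them on the 4 that held more than 5 each. A gene on the other strand began within 1000 bases upstream of 24 of them (31.2%), against 20.5% of the cytosolic ribosomal protein genes and 14.6% of all protein-coding genes tested. One such pair joins both subunits: Mrps11 and Mrpl46 start 42 bases apart. Others are Mrps12, whose protein sits at the decoding site, with the mitochondrial seryl-tRNA synthetase gene Sars2 (136 bases), Mrpl36 with the complex I subunit gene Ndufs6 (21 bases) and Mrpl47 with the complex I subunit gene Ndufb5 (302 bases). The gene spans of 25 members overlapped another annotated gene, 6 of them on the same strand. Spans include introns, and whether reads of such pairs were shared in counting was not tested. Named below with such an overlap are Mrpl2, Mrpl14, Mrpl18, Mrpl19, Mrpl33, Mrpl37, Mrpl44, Mrpl48, Mrpl49, Mrps7, Mrps9, Mrps18a, Mrps18b, Mrps25, Mrps27 and Mrps28. Of these, only Mrpl33 and Mrps28 had an overlap on the same strand.

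Promoter windows from RefSeq (GRCm38.p6), from 250 bases before to 50 bases after an annotated start, were at hand for 68 of the 77, all but Mrpl4, Mrpl13, Mrpl15, Mrpl19, Mrpl38, Mrpl54, Mrps28, Mrps34 and Mrps35. They were searched on both strands for short motifs of factors known to act at promoters of genes for mitochondrial proteins. The letters GCGCATGCG of NRF1 were present for 7 of the 68 (10.3%), against 3.77% of the 11469 tested genes with a window and 5.08% of the cytosolic ribosomal protein genes. The letters CCGGAAG, bound by ETS factors such as GABPA, were present for 25 (36.8%), against 18.1%, and also for 39% of the 59 cytosolic ribosomal protein genes. The letters AAGATGGC of YY1 were present for 12 (17.6%), against 4.78% of all genes tested and 10.2% of the cytosolic ribosomal protein genes. The GC box GGGCGG was less frequent, with 50% against 67.9%, while CCAAT (39.7% against 42.7%) and TATAAA (7.35% against 8.96%) were near the share of all genes. Members had 74 windows over 68 genes, and all tested genes had 14690 over 11469, so that the latter had more chances of a match. A match is a description of letters and does not show binding.

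**Figure D1:**
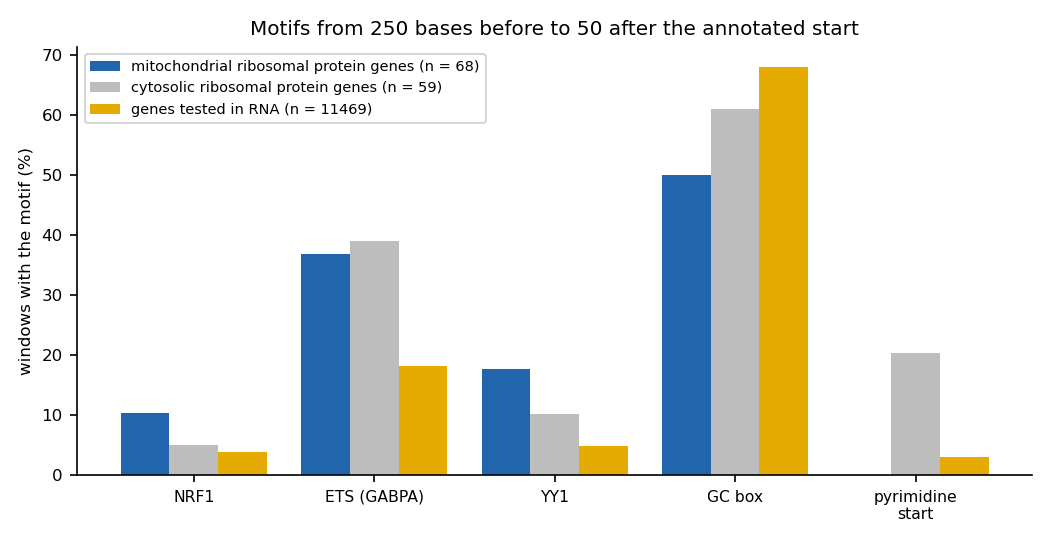
Share of genes (%, vertical axis, from 0) whose promoter window holds each motif, for 68 mitochondrial ribosomal protein genes, 59 cytosolic ribosomal protein genes and 11469 genes tested in RNA. NRF1, ETS and YY1 letters were more frequent in the mitochondrial ribosomal protein genes than in all genes tested, and the bar for a pyrimidine start is absent because none of the 68 had one.

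In 8 members the YY1 letters stood on the gene's own strand within the first transcribed bases, and in 6 of these the ATG inside the motif was the annotated start codon. That is 8.82% of members with a window, against 3.39% of the cytosolic ribosomal protein genes and 1.46% of all genes tested. These 6 stretches are shown because the same 8 letters span both a promoter motif and the start of translation; the motif is in capitals, and each is read 5′ to 3′ on the gene's strand.

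Mrps7 (chr11:115604148-115604175, + strand): gacagcggccAAGATGGCtgcccccgcg
Mrps27 (chr13:99344790-99344817, + strand): ggtgcgctccAAGATGGCggctcccatg
Mrps18a (chr17:46111005-46111032, + strand): ggtgcgttccAAGATGGCggccctcagg
Mrps24 (chr11:5707652-5707675, - strand): gcgccggcccAAGATGGCgtggtc
Mrpl35 (chr6:71823744-71823771, - strand): ggcaggctgcAAGATGGCggcttccatc
Mrpl49 (chr19:6057722-6057749, - strand): ttgaggcgccAAGATGGCagcagcggtg

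mRNAs of cytosolic ribosomal proteins begin with a C followed by a run of pyrimidines, the TOP motif, through which mTORC1 is known to control their translation. At the annotated start, a C followed by at least 4 pyrimidines was found for 0 of the 68 mitochondrial ribosomal protein genes, against 20.3% of the cytosolic ribosomal protein genes and 2.94% of all genes tested. When the run was allowed anywhere from 5 bases before to 10 bases after the start, the shares were 25%, 47.5% and 23.7%. Annotated starts can be a few bases off. Rps6 had such a run at its annotated start, while Rpl4, Rplp0 and Rps3 did not. The starts of Mrpl12, Mrps14 and Mrps33, which had the extreme levels described next, are shown beside that of the TOP gene Rps6, with the first transcribed bases in capitals.

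Mrpl12 (chr11:120484622-120484651, + strand): agctcgcctcctcccGGATAGAGCGTCGCT
Mrps14 (chr1:160195200-160195229, + strand): ccccgcctccacagaACCTGTTTCCGGTGT
Mrps33 (chr6:39810922-39810951, - strand): ttccgcctctctcctGCTCTCTGGAGCTGG
Rps6 (chr4:86857353-86857382, - strand): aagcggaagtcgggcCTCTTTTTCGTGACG

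To place the mRNAs of the mitochondrial ribosome among those of the slice, levels were taken per kb in WT vehicle, as CPM per kb of the longest annotated transcript for RNA and CPM per kb of coding sequence for RPF, the latter less the 30 bases that had been removed at each end. The median of the 77 genes was 15.1 CPM per kb in RNA, against 141 for cytosolic ribosomal protein genes and 8.30 for all 12742 genes with both values. In RPF per kb it was 58.7, against 256 and 17.6. In the ratio of RPF per kb to RNA per kb, a within-sample measure of translational efficiency (TE), it was 3.96 ± 0.422 (SD of the medians of 3 libraries), against 1.81 ± 0.292 and 2.36 ± 0.0184. The mRNAs for mitochondrial ribosomal proteins were thus below those for cytosolic ribosomal proteins in RNA and in RPF, and above both other sets in ratio. All 77 were above the median of all genes in RPF per kb, 64 in RNA per kb and 56 in the ratio. The median coding length was 567 bases for members, 456 for cytosolic ribosomal protein genes and 1428 for all genes. Over all genes the ratio fell with coding length (Pearson's r -0.40 on the log2 scale). The part of length in the differences between the sets was not tested. In tissue of mixed cell types, fewer cells of a type and less RNA per cell cannot be told apart.

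Within the family levels were closer together than among all genes and about as close as among cytosolic ribosomal protein genes. The upper quartile was 2.04 times the lower in RNA per kb and 2.16 times in RPF per kb, against 7.76 and 8.87 times over all genes tested and 2.11 and 1.80 times over cytosolic ribosomal protein genes. The full range was 3.16 to 43.2 CPM per kb for RNA and 21.1 to 414 for RPF. RNA per kb and RPF per kb were weakly related across the 77 genes, with Pearson's r 0.21 on the log2 scale, as a description over genes that share libraries and are each divided by a length.

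**Figure D2:**
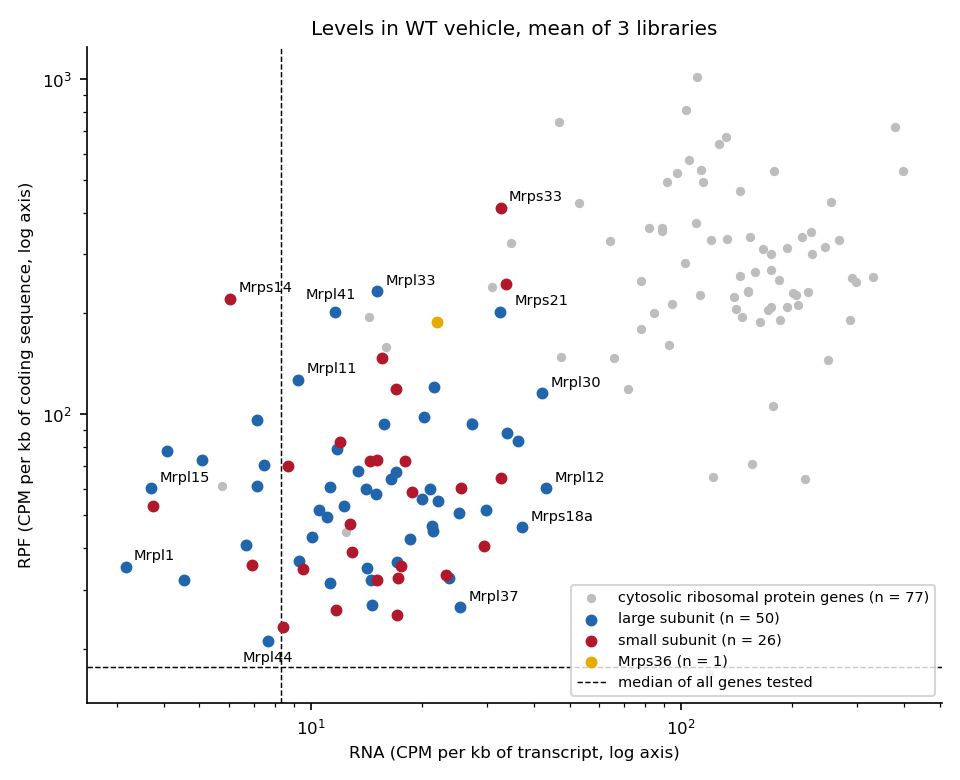
RNA (horizontal, CPM per kb of transcript) against RPF (vertical, CPM per kb of coding sequence) in WT vehicle, both on log axes, each point the mean of 3 libraries for 1 gene. The 50 large-subunit (blue) and 26 small-subunit (red) members and Mrps36 (yellow) lie together between 3.16 and 43.2 in RNA per kb and all lie above the dashed median of all genes in RPF per kb, while most cytosolic ribosomal protein genes (grey) lie above and to the right.

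The highest RNA per kb was that of Mrpl12, which encodes the stalk protein present in several copies per mitochondrial ribosome. It had 40.0, 41.2 and 45.9 CPM in the WT vehicle libraries, or 43.2 ± 3.19 CPM per kb (SD, n = 3). Its RPF was 37.0, 30.6 and 31.2 CPM, or 60.3 ± 6.41 CPM per kb, which ranked 35 of 77 and lay near the median of the family. Its ratio of 1.40 ± 0.228 ranked 74. Next in RNA per kb were Mrpl30, a large-subunit protein with a bacterial homolog (42.3 ± 4.60), and Mrps18a (37.2 ± 4.42), which despite its name is part of the large subunit. These 3 do not differ beyond their spread. The lowest were Mrps25 (3.74 ± 0.364), Mrpl15 (3.70 ± 0.410) and Mrpl1 (3.16 ± 0.0609), and Mrps25 and Mrpl15 were within their spread of each other. This order moved with the transcript taken. With the transcript of shortest coding sequence in place of the longest, Mrpl30 (47.2) and Mrpl42 (46.2) were above Mrpl12 (43.2). Mrpl15 was then at 8.10 and Mrpl1 at 6.90, while Mrps25 stayed at 3.74.

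The highest RPF per kb was that of Mrps33, a small protein of the small subunit, with 414 ± 38.6 CPM per kb from 96.5, 112 and 115 CPM in the 3 libraries. It was followed by Mrps21 (245 ± 26.8) and Mrpl33 (233 ± 41.8), whose spreads overlap, both with bacterial homologs. These have some of the shortest coding sequences of the family, 321, 264 and 198 bases against a median of 567. With the transcript of shortest coding sequence the highest RPF per kb of the family was 2399 in place of 414. Across the 77 genes RPF per kb went with coding length at r -0.74, again as a description. The lowest were Mrps5 (25.3 ± 4.19), Mrps35 (23.2 ± 2.36) and Mrpl44 (21.1 ± 0.912), the last with a fold known from RNase III enzymes, and their spreads overlap.

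The ratio ran from 1.06 to 36.7. Mrps14 had the highest, with 37.7, 40.3 and 32.2 in the 3 libraries, all above the highest value of any other member, the 21.99 of Mrpl41. Its RNA was 12.3 to 13.6 CPM and its RPF 63.5 to 72.0 CPM. Mrpl35 (19.1 ± 2.60) and Mrpl41 (17.6 ± 3.84) came next and did not differ beyond their spread. Mrpl38 (1.38 ± 0.237), Mrps18a (1.25 ± 0.188) and Mrpl37 (1.06 ± 0.0961) were lowest. The 10 genes with the highest ratios had annotated transcripts of 2653 bases in the median, against 1220 for the 10 lowest, with shorter coding sequences (462 against 821 bases). Over the family the ratio followed transcript length divided by coding length at r 0.72 and coding length at r -0.42, and over all genes tested it followed coding length at r -0.40. With RNA taken per transcript rather than per kb, r with coding length in the family was -0.14. The order of the ratios therefore moves with which transcript is taken as the expressed one: with the transcript of shortest coding sequence the ratio of Mrps33 was 65.6 in place of 12.7, and that of Mrpl1 6.28 in place of 11.1.

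By subunit the median ratio was 3.99 for the 50 genes of the large subunit and 3.65 for the 26 of the small. By assigned evolutionary class it was 4.35 for 45 proteins with a bacterial homolog and 2.83 for 30 classed as specific to mitochondria. With the transcript of shortest coding sequence these were 4.07 and 3.77. The SD of the medians by subunit and by class over 3 libraries was 0.251 to 0.571. The mitochondria-specific class took in Mrps18a and Mrps18b, although they are paralogs of bacterial S18, and not every member was placed in a class. Mrps36, whose protein is now placed in the 2-oxoglutarate dehydrogenase complex and not in the ribosome, had a ratio of 8.72 ± 1.92. Proteins of known role were spread over the range. Mrpl11, near the site where translation factors bind, had 13.8 ± 1.81, Mrpl3, a core protein near the catalytic centre, 5.08 ± 0.145, Mrpl45, at the exit of the nascent chain, 3.96 ± 0.710, Mrps7, in the head of the small subunit, 3.16 ± 0.470, and Mrps12 2.42 ± 0.659. The 3 paralogs of bacterial S18 differed beyond their spread, with Mrps18c at 7.07 ± 0.748, Mrps18b at 2.03 ± 0.373 and Mrps18a at 1.25 ± 0.188. With the transcript of shortest coding sequence Mrps18b was at 4.50, with the same order.

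The levels of the family were close in the 4 groups. Vehicle libraries summed to 1568 ± 114 CPM of RNA in WT and 1522 ± 24.6 in Tsc2+/- (SD, n = 3), and DHPG libraries to 1523 ± 45.1 and 1505 ± 47.5. In RPF these sums were 2659 ± 105 and 2721 ± 73.0 CPM for vehicle and 2761 ± 58.9 and 2765 ± 51.5 CPM for DHPG. The libraries of every group overlapped those of every other group in both assays.

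The first question of the design was whether loss of 1 copy of Tsc2 alters RNA, RPF or TE. In RNA, 0 of the 77 genes were called (adjusted p under 0.1, edgeR) in vehicle, in DHPG or averaged over both treatments, where 0.0896%, 0.0482% and 0.227% of the 14516 genes tested were called. In RPF 0 were called, against 0.0233%, 0.0155% and 0.0621% of 12877 genes. In TE, tested as the change in RPF less that in RNA, 0 were called, and 0% of 12785 genes were called in any of the 3. The smallest adjusted p of a member was 0.456 for RNA (Mrps34, averaged), 0.516 for RPF (Mrps36, averaged) and 0.730 for TE (Mrpl22, vehicle).

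At an unadjusted p under 0.05, 0 members were higher and 5 lower in Tsc2+/- vehicle RNA, or 0% and 6.49% against a background of 2.6% and 2.3% of all genes. In DHPG, 3 were higher and 3 lower (3.90% each), against 2.28% and 2.36%. In RPF, 3 were higher and 1 lower in vehicle, against 3.38% and 3.17%, and 2 higher and 1 lower in DHPG, against 2.08% and 2.05%. In TE, 5 were higher and 1 lower in vehicle, against 2.57% and 3.16%, and 0 higher and 1 lower in DHPG, against 1.41% and 1.61%. The median log2 fold change of the 77 was -0.05 in RNA, 0.02 in RPF and 0.07 in TE in vehicle, and -0.02, -0.01 and 0.01 in DHPG. The median of all genes was 0.00 or -0.00 in each. Of the 83 cytosolic ribosomal protein genes, 0 were higher and 18 lower (21.7%) in vehicle RNA at an unadjusted p under 0.05, with a median of -0.11.

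The second question was whether 5 min of DHPG alters them. In WT, 0 members were called, against 0%, 0.0311% and 0.0469% of all genes in RNA, RPF and TE. In Tsc2+/- 0 were called, against 0% in each, and averaged over genotypes 0 were called, against 0.0207%, 0.0311% and 0.0469%. The smallest adjusted p of a member was 0.557 for RNA (Mrpl33, averaged), 0.333 for RPF (Mrpl3, averaged) and 0.335 for TE (Mrpl3, averaged). The interaction of genotype and DHPG was called for 0 members and for 0% of all genes in RNA, in RPF and in TE.

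At an unadjusted p under 0.05, 0 members were higher and 2 lower in RNA after DHPG in WT, against 3.7% and 2.75% of all genes, and 1 higher and 3 lower in Tsc2+/-, against 2.16% each. In RPF, 4 were higher and 0 lower in WT (5.19% and 0%), against 3.79% and 2.92%, and 3 higher and 0 lower in Tsc2+/- (3.90% and 0%), against 2.15% and 1.88%. In TE, 5 were higher and 1 lower in WT (6.49% and 1.30%), against 4.49% and 4.57%, and 2 higher and 1 lower in Tsc2+/-, against 1.97% and 1.72%. The median log2 fold change was -0.06, 0.06 and 0.11 for RNA, RPF and TE in WT and -0.01, 0.02 and 0.04 in Tsc2+/-. In WT the TE value was above 0 for 60 of the 77 genes, against 50.2% of all genes. Of the 83 cytosolic ribosomal protein genes, 0 were higher and 10 lower (12.0%) in RNA after DHPG in WT at an unadjusted p under 0.05, with a median of -0.09.

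**Figure D3:**
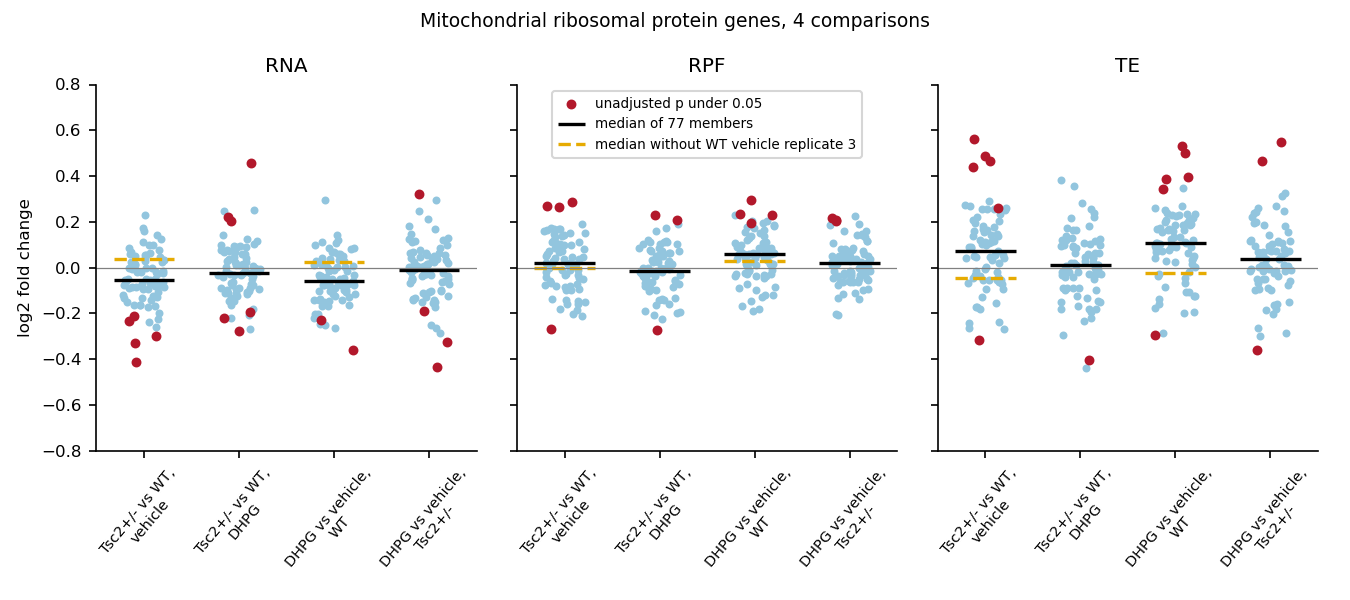
log2 fold change (vertical axis) of each of the 77 genes in 4 comparisons (horizontal axis) for RNA, RPF and TE, with red points at an unadjusted p under 0.05, a black line at the median and a dashed line at the median without WT vehicle replicate 3. None of the points passed the adjusted threshold, and in the comparisons that use that library, genotype in vehicle and DHPG in WT, the dashed lines for RNA and TE lie on the other side of 0 from the black ones.

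The RNA and TE shifts of genotype in vehicle and of DHPG in WT moved with 1 library. For each gene, the deviation of a library from the mean of the 12 was taken on the log2 scale. In WT vehicle replicate 3 the median deviation of the 77 genes was 0.18 in RNA, with 72 above their mean, -0.12 in RPF, with 17 above, and -0.29 in TE, with 4 above. In the other 11 libraries the medians lay between -0.05 and 0.05 in RNA, -0.04 and 0.05 in RPF and -0.05 and 0.06 in TE. This library held the highest RNA value of the 12 for 34 of the 77 genes (44.2%), against 11.4% of all genes, and the lowest TE for 41 (53.2%), against 14.5%. It was not particular to mitochondrial ribosomes: the cytosolic ribosomal protein genes deviated in it by 0.26 in RNA and -0.31 in TE, and all genes with a coding sequence under 1000 bases by 0.08 and -0.15. The summed neuron markers were at 9258 CPM in its RNA, below the 10011 to 10905 CPM of the other 11, the CA1 markers at 1736 CPM, below 1764 to 1923, and the microglia markers at 164 CPM, below 183 to 220. In its RPF the markers of astrocytes (2886 against 3224 to 3811 CPM), microglia (212 against 232 to 369 CPM) and CA3 (49.5 against 51.3 to 78.5 CPM) were lowest, while those of neurons and CA1 ranked 4 and 3 of 12. Their part in the result was not tested.

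**Figure D4:**
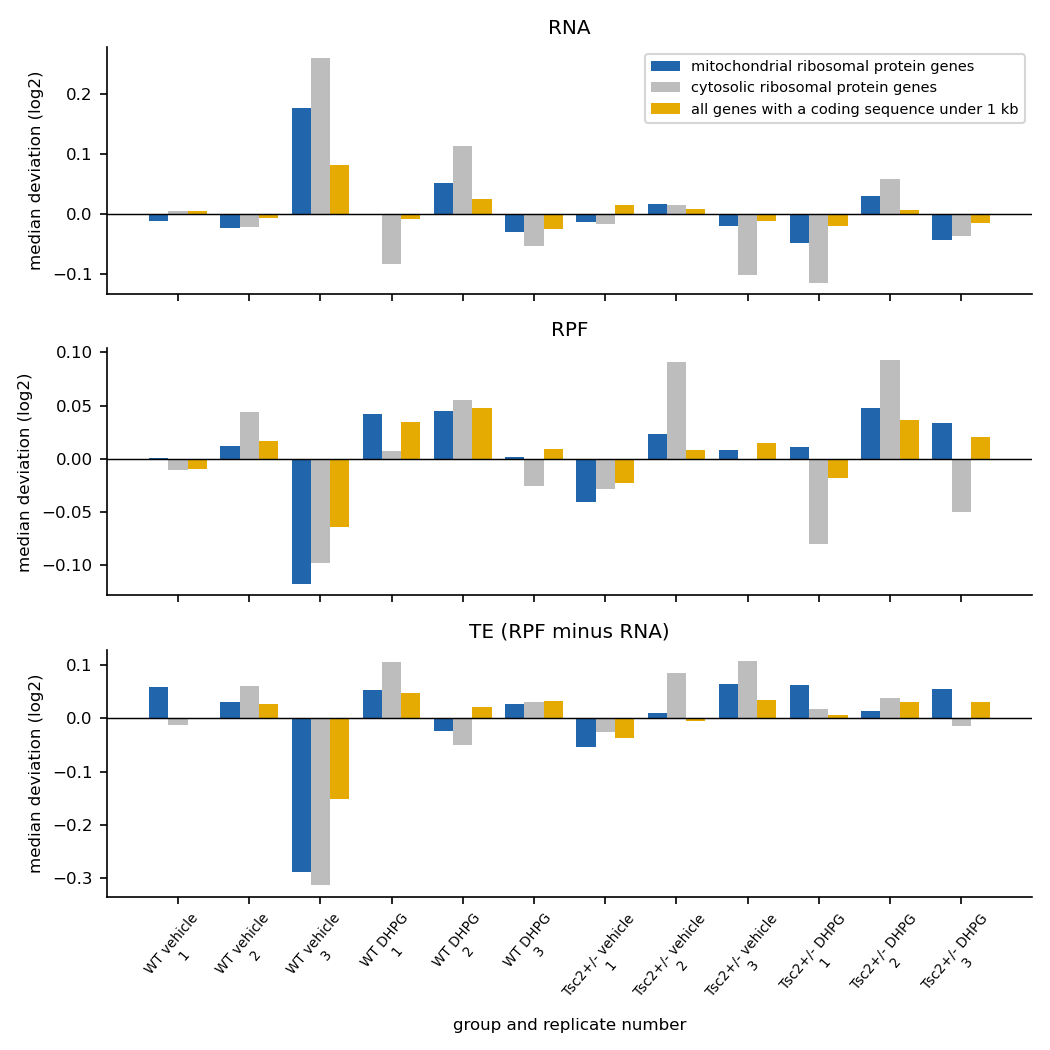
Median deviation (log2) of each library from the mean of the 12, for the 77 mitochondrial ribosomal protein genes, the cytosolic ribosomal protein genes and all genes with a coding sequence under 1000 bases, in RNA, RPF and TE. WT vehicle replicate 3 stands apart in all 3 panels, with members at 0.18, -0.12 and -0.29.

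Without WT vehicle replicate 3 the median shift of the family changed sign in RNA and TE in both comparisons, and that of RPF for genotype in vehicle moved to about 0. For Tsc2+/- against WT in vehicle it was 0.04 in RNA, -0.0023 in RPF and -0.04 in TE, and for DHPG in WT 0.03, 0.03 and -0.02. Members at an unadjusted p under 0.05 in the first comparison were then 2 higher and 0 lower in RNA, 4 and 6 in RPF and 3 and 4 in TE, and in the second 1 and 0, 5 and 2 and 3 and 4. Again 0 were called. The cytosolic ribosomal protein genes followed the same library. Their median TE shift was 0.15 for genotype in vehicle and 0.13 for DHPG in WT, with 20 and 12 of 77 higher at an unadjusted p under 0.05, and 0.04 and 0.00 without this library, with 3 and 1. Their RNA medians of -0.11 and -0.09 were -0.0025 and 0.01 without it. For DHPG in WT the TE value was then above 0 for 33 of the 77 members, in place of 60. The comparison within single pairs of libraries gave the same picture, with median TE changes of 0.00, -0.01 and 0.31 for replicates 1, 2 and 3.

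How large a change could have been missed is given by the 95% intervals of the fits. In RNA, the interval lay within 0.5 of 0 on the log2 scale for 68, 70, 71 and 69 of the 77 genes (genotype in vehicle, genotype in DHPG, DHPG in WT and DHPG in Tsc2+/-). In RPF it did for 71, 74, 74 and 76, and in TE, whose error is larger, for 44, 55, 43 and 52. In these 4 comparisons all 77 intervals lay within 1 of 0 in RNA, RPF and TE. A missing call therefore leaves room for changes below these sizes and does not show that levels are equal.

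The members with the smallest p in each comparison are described by their values, since none passed the adjusted threshold. Mrps18c, 1 of the 2 S18 paralogs of the small subunit, was among them in all 3 measures, though not in the same comparison. TE is the change in RPF less that in RNA, so its TE values are not separate from the other measures. In RNA the WT libraries had 7.87, 8.12 and 9.55 CPM with vehicle and 5.43, 8.31 and 6.16 CPM with DHPG, and the Tsc2+/- libraries 7.52, 7.02 and 7.67 CPM and 8.51, 8.60 and 10.2 CPM. All Tsc2+/- DHPG libraries were above all WT DHPG libraries, with a log2 difference of 0.46 (SE 0.157, adjusted p 0.809). Its RPF was 40.9, 47.2 and 44.9 CPM in WT vehicle and 48.2, 54.4 and 60.1 in Tsc2+/- vehicle, a difference of 0.29 (SE 0.106, adjusted p 0.623). Its ratio was 7.02, 7.84 and 6.34 in WT vehicle and 13.2, 8.97 and 8.89 in WT DHPG, with no overlap and a TE difference of 0.53 (SE 0.182, adjusted p 0.341). In Tsc2+/- the same contrast ran the other way, from 8.65, 10.5 and 10.6 in vehicle to 7.83, 8.16 and 7.09 in DHPG (-0.36, SE 0.174, adjusted p 0.999). Without WT DHPG replicate 1 the TE difference of DHPG in WT was 0.32, and that of genotype in DHPG -0.19 in place of -0.40. Without Tsc2+/- vehicle replicate 3 the RPF difference was 0.18. The RNA counts behind these values went down to 82 in a library.

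Mrps36 RPF with vehicle was 40.4, 46.7 and 54.0 CPM in the WT libraries and 49.2, 61.0 and 58.9 CPM in the Tsc2+/- libraries. With DHPG it was 54.6, 51.8 and 50.4 CPM and 57.0, 63.2 and 62.6 CPM. The Tsc2+/- libraries were higher in each of the same-numbered pairs, with overlap in vehicle and none in DHPG. The difference was 0.27 in vehicle (SE 0.0971, adjusted p 0.623), 0.21 in DHPG (SE 0.0935, adjusted p 0.9995, and 0.13 without WT DHPG replicate 3) and 0.24 averaged (SE 0.0674, adjusted p 0.516). Its RNA differed by 0.10 averaged (SE 0.0800, adjusted p 0.923), within the spread of the libraries.

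Mrpl3 RPF was 54.1, 58.0 and 62.4 CPM in WT vehicle and 64.4, 65.2 and 69.7 in WT DHPG. In Tsc2+/- it was 59.7, 59.4 and 60.7 in vehicle and 66.0, 74.8 and 68.0 in DHPG. DHPG libraries were above vehicle libraries in both genotypes with no overlap, by 0.20 (SE 0.0832, adjusted p 0.690) and 0.21 (SE 0.0831, adjusted p 0.9999), and by 0.20 averaged (SE 0.0588, adjusted p 0.333). Its RNA differed by -0.06 averaged (SE 0.0639, adjusted p 0.859), and its TE by 0.27 averaged (SE 0.0849, adjusted p 0.335). Mrpl3 encodes a core protein of the large subunit.

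Mrpl22, whose protein lines the exit tunnel, had RNA of 9.75, 10.6 and 12.0 CPM in WT vehicle and 7.86, 9.71 and 6.86 in Tsc2+/- vehicle. The groups were just apart, by -0.41 (SE 0.142, adjusted p 0.908). Its ratio was 3.54, 4.68 and 3.42 against 5.38, 5.33 and 6.45, with a TE difference of 0.56 (SE 0.170, adjusted p 0.730). Without WT vehicle replicate 3 these were -0.28 and 0.49. In DHPG the RNA of the 2 genotypes differed by 0.00 (SE 0.142).

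**Figure D5:**
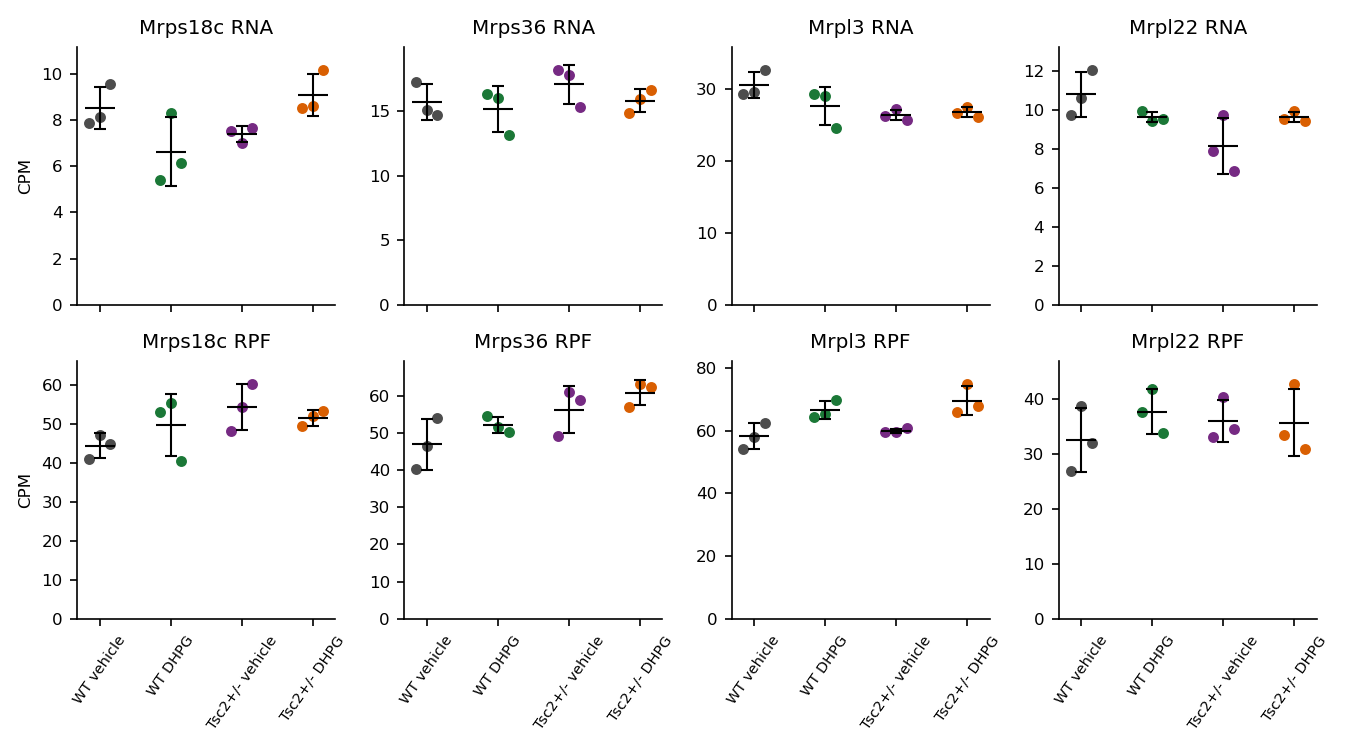
CPM (vertical axes, from 0) of Mrps18c, Mrps36, Mrpl3 and Mrpl22 in each library of the 4 groups, RNA above and RPF below, with the mean and SD of 3 libraries as bars. Mrpl3 RPF in DHPG lies at 64.4 to 74.8 CPM, above the 54.1 to 62.4 CPM of the vehicle libraries.

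Mrps34, a protein found in mitochondrial ribosomes alone, is the member nearest to Tsc2, 0.281 Mb away on chromosome 17 (24895120 to 24896289). Mrps34 RNA with vehicle was 28.4, 29.4 and 31.8 CPM in the WT libraries and 25.2, 28.1 and 22.9 CPM in the Tsc2+/- libraries. With DHPG it was 28.1, 27.04 and 26.2 CPM and 20.7, 25.5 and 24.8 CPM. Tsc2+/- libraries were below WT libraries without overlap in vehicle and in DHPG, by -0.24 and -0.20 (SE 0.0948 and 0.0962, adjusted p 0.983 and 0.997), and by -0.22 averaged (SE 0.0675, adjusted p 0.456). Without replicate 3 the Mrps34 RNA difference in vehicle was -0.12. Its RPF differed by -0.20 averaged (SE 0.0817, adjusted p 0.660), and its TE by 0.01 (SE 0.109). The other 7 members on chromosome 17 (Mrpl2, Mrpl14, Mrpl18, Mrpl28, Mrps10, Mrps18a and Mrps18b) differed by -0.17 to 0.07 in RNA averaged over treatments. The nearest of them, Mrpl28 at 1.51 Mb, differed by -0.06 in RNA (SE 0.06997) and 0.04 in RPF (SE 0.0674).

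Mrps18b RPF was 24.8, 27.6 and 22.1 CPM in WT vehicle and 29.3, 33.5 and 28.9 in WT DHPG, apart by 0.30 (SE 0.113, adjusted p 0.632). Mrps9, a small-subunit protein with a bacterial homolog, had RNA of 21.2 to 21.5 CPM in WT vehicle and 17.04 to 19.1 in WT DHPG (-0.23, SE 0.101, adjusted p 0.738), and RPF of 33.1 to 37.5 CPM in WT DHPG and 38.9 to 44.5 in Tsc2+/- DHPG (0.23, SE 0.103, adjusted p 0.9995). These groups did not overlap. For DHPG in Tsc2+/-, Mrpl55 RNA was 15.03 to 18.4 CPM in vehicle and 11.8 to 14.98 in DHPG, just apart (-0.33, SE 0.127, and -0.15 without Tsc2+/- vehicle replicate 1), with TE at 0.55 (SE 0.190). Mrpl33 RNA was 7.11 to 8.39 and 5.05 to 6.05 CPM (-0.44, SE 0.175) with TE at 0.46 (SE 0.210, and 0.31 without Tsc2+/- DHPG replicate 2). Both had adjusted p of 0.999 or more in each measure. The others with the smallest p were Mrpl48 RNA (-0.22, SE 0.0904, genotype in DHPG), Mrps22 RNA (-0.26, SE 0.146, DHPG in WT, and -0.07 without WT vehicle replicate 3), Mrps17 RPF (0.20, SE 0.0926, DHPG in Tsc2+/-), Mrpl19 TE (0.44, SE 0.156, genotype in vehicle) and Mrpl17 TE (-0.30, SE 0.151, genotype in DHPG), with adjusted p of 0.803 or more.

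Among the genes chosen for their roles, those not yet described had small differences in RNA. For Mrpl11, Mrpl12, Mrpl45, Mrps7, Mrps12, Mrps18a and Mrps30, the last a large-subunit protein despite its name, the 4 simple comparisons lay between -0.17 and 0.13 in RNA, with adjusted p of 0.857 or more. For Mrpl44 and Mrps22 they were wider, from -0.24 to 0.15 and from -0.33 to 0.18 in RNA, with adjusted p of 0.904 or more for Mrpl44 and 0.803 or more for Mrps22. The TE of Mrps22 for DHPG in WT was 0.50 (SE 0.176, adjusted p 0.345).

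Further genes of mitochondrial translation were counted from a fixed list of mitoribosomal proteins under other symbols, translation factors, assembly factors and tRNA synthetases. Of 65 listed, 61 were found and tested, and 0 were called in the 4 simple comparisons in RNA, RPF or TE, where at most 0.0896% of all genes were called, with medians between -0.04 and 0.02. The 6 ribosomal proteins under other symbols had ratios like those of the family, from 2.94 ± 0.365 for Ptcd3 and 6.97 ± 0.385 for Dap3, the GTP-binding protein of the small subunit, to 8.27 ± 1.64 for Ict1, a peptidyl-tRNA hydrolase built into the large subunit.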

How the data were processed

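Each deposited table holds RSEM's expected counts for every gene, rounded to whole numbers by the authors. Per the study's methods, reads were trimmed (Cutadapt, Trimmomatic), cleared of rRNA and tRNA (bowtie2), mapped to mm10 (TopHat2), kept where unique and deduplicated by molecular identifier. RNA was counted over whole transcripts, and RPF over coding sequences less 30 bases at each end, which removes a larger share of short genes. In RPF replicates 2 and 3, 97.9% to 98.5% of the non-zero counts were even, and halving them was an alternative.

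The 24 libraries were grouped by the labels. The study's correction of batch with ComBat followed by DESeq2 was replaced by edgeR 4.0.16 (R 4.3.3) with replicate number in the model: filterByExpr at a minimum count of 10, TMM and the robust two-sided quasi-likelihood F test on all 12 libraries of an assay. TE was the interaction of assay and group over 24 libraries. Benjamini-Hochberg adjustment ran over all genes tested, and a call needed an adjusted p under 0.1. CPM are counts scaled by TMM, with a prior count of 2 on the log2 scale. SE and 95% intervals came from the F statistic and cover the spread between libraries, which may be in part technical. Positions, lengths and GC content came from RefSeq (GRCm38.p6), where all 77 symbols matched. Alternatives were DESeq2 1.42.0, its size factors, no filter, no replicate number, correction of libraries for trends with GC content and coding length, and leaving out libraries. The fits were also run on simulated data, drawn with the same spread for every gene and without a replicate effect. These data held no deviating library, so they do not show how the fits behave with such a library.

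Members and lists were chosen with earlier results of these data known. Named were, per simple comparison and measure, the 2 members with the smallest p among those that moved the same way in all 3 same-numbered pairs, members of known role, and the 3 highest and 3 lowest in each level. The members on chromosome 17 were added after their values had been seen, and so were the S6 kinase and Rps19bp1 rows left out of the reference.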

Additional observations from a re-analysis of the deposited data

Results flagged for a closer look

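In 10 results of the named members a contrast ran one way in all 3 same-numbered pairs of libraries of one setting and the other way in all 3 of the other setting. The test of the difference is the interaction, and none of the interactions passed the adjusted threshold (edgeR adjusted p 0.998 to 0.999), so each is given as a value. For genotype, in vehicle and then in DHPG, Mrps18c RNA was -0.20 and 0.46 (interaction 0.65, SE 0.221) and Mrps9 RNA -0.14 and 0.10 (0.24, SE 0.141). Mrps18b RPF was 0.19 and -0.22 (-0.41, SE 0.161). In TE, Mrpl22 was 0.56 and -0.10 (-0.66, SE 0.239), Mrps18c 0.49 and -0.40 (-0.89, SE 0.252) and Mrps5 -0.0301 and 0.10 (0.13, SE 0.216). For DHPG, in WT and then in Tsc2+/-, Mrps22 RNA was -0.26 and 0.18 (0.45, SE 0.204) and Mrps18b RPF 0.30 and -0.12. In TE, Mrps18c was 0.53 and -0.36 and Mrpl44 0.19 and -0.16 (-0.35, SE 0.281).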

How the results depend on the processing

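Under 22 settings, 0 of the 455 alternative counts of members called were above 0, and 0 of 493 alternatives of the named members' results passed the threshold or changed sign. The smallest adjusted p was 0.138, for Mrps36 RPF, genotype averaged, without WT vehicle replicate 3 (log2 fold change 0.28). The deviations of same-numbered libraries were weakly related, with r above 0 in all pairs. It was 0.0228 to 0.143 in RNA and 0.0330 to 0.263 in RPF, over 0.1 in 5 and 9 of 18 pairs. Libraries of different numbers were not compared, so how far the number stands for a batch was not tested. In RPF, 48.2% to 49.0% of the non-zero counts were even in replicate 1 and 97.9% to 98.5% in replicates 2 and 3. The number thus marks a difference between the RPF libraries, whose reason is not known and was not tested. Without the replicate block no call changed, and the median TE shift for DHPG in WT was 0.11. Leaving out libraries moved the medians of RNA from -0.09 to 0.04 (genotype, vehicle), -0.0536 to 0.0045 (genotype, DHPG), -0.12 to 0.04 (DHPG, WT) and -0.0386 to 0.0195 (DHPG, Tsc2+/-). For RPF they ran from -0.0132 to 0.0645 (genotype, vehicle), -0.0414 to 0.0245 (genotype, DHPG), 0.03 to 0.08 (DHPG, WT) and -0.0113 to 0.0426 (DHPG, Tsc2+/-). For TE they ran from -0.04 to 0.17 (genotype, vehicle), -0.0239 to 0.0457 (genotype, DHPG), -0.02 to 0.19 (DHPG, WT) and -0.0444 to 0.0775 (DHPG, Tsc2+/-). With trends with GC content and length removed, replicate block kept, the RPF median for DHPG in WT was 0.0028, from 0.06. The TE medians were then 0.03 (genotype, vehicle, from 0.07) and 0.05 (DHPG, WT, from 0.11), and the RNA medians -0.03 in both comparisons, from -0.05 and -0.06. With the transcript of shortest coding sequence the median RNA level in WT vehicle was 16.5 CPM per kb. The RNA medians of genotype in vehicle and DHPG in WT and the TE medians of both changed sign without WT vehicle replicate 3, and the RPF median of genotype in vehicle went from 0.02 to -0.0023. The medians nearest 0 changed sign without single libraries of either treatment. The cause was not tested. With 3 libraries per group, TE changes of about 0.5 on the log2 scale could be missed for many members. Larger ones could be missed as well, since a TE estimate of 0.56 (Mrpl22, genotype in vehicle) was not called.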
